A study of Rattus norvegicus with 2 samples.

Results

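The genes described here encode the extracellular matrix and the enzymes that cut it. They were chosen by a rule on names: every probe whose gene name in the array files begins with Col and a digit, Fbn, Fbln, Lama, Lamb, Lamc, Mmp, Timp or Adamts, or is Lum, Dcn, Bgn, Sparc, Postn, Eln or Fn1. The rule was set with earlier results of these data known. It gave 133 of the 30367 probes on the array, for 104 of 26269 gene or transcript names. The series concerns hypertension programmed before birth. RNA came from the hypothalamic paraventricular nucleus (PVN), which drives neuroendocrine secretion and sympathetic nerves, of male Sprague Dawley offspring aged 12 weeks. The mothers of the control group received vehicle, and the mothers of the other group received dexamethasone, a synthetic glucocorticoid, at 200 µg/kg in the third trimester. Each group was measured on 1 one-colour array. The labels do not say how many animals gave RNA to each array.

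The extracellular matrix of the adult brain is unusual. Most of the tissue holds a fine meshwork of hyaluronan and proteoglycans, and collagen-rich matrix is kept to the meninges, the vessel walls and the basement membranes under endothelium and around penetrating vessels. Fibrillar collagens assemble into tensile fibres outside the cell, collagen IV and laminins form the sheets of basement membranes, and fibrillins and elastin form elastic microfibrils. Matrix metalloproteinases (MMPs) and ADAMTS proteases cut these proteins, and TIMPs inhibit the proteases.

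Values are processed spot intensities, called signals below, on a linear scale. Differences are log2 values, dexamethasone minus control, after each array was divided by its own 75th percentile signal (1404 for control, 1480 for dexamethasone), so equal signals give a difference slightly below 0. Each gene is represented by the brightest of its probes well above background on both arrays. Higher or lower, as a count, means a difference of 2-fold or more, which is a rule of size. With 1 array per group there was no replicate check and no test, and the number of arrays limits the precision. Some probes were spotted repeatedly, and the SD between their spots is the error given below. That SD had a median of 0.041 (log2) over 1314 probes. At mean log2 signals below 6 it was 0.21. Both arrays lay on the same slide, so position on the slide and group cannot be told apart.

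Of the 104 matrix genes, 80 were measured on both arrays. In the dexamethasone array 6 of these were 2-fold or more higher (7.5%) and 10 were 2-fold or more lower (12.5%). Over all 14175 measured genes the shares were 3.37% higher and 2.38% lower. The difference of either sign reached 2-fold for 20% of the matrix genes and for 5.76% of all genes. Counted by probe, 7.07% of 99 measured matrix probes were higher and 12.1% lower (19.2% either way), against 2.67% and 3.18% (5.84%) of all 23321 measured probes. With normexp background correction, which compresses the differences of dim genes, 5% of the matrix genes were higher and 8.75% lower, against 2% and 0.917% of all genes. Among genes of above-median signal the matrix genes were 27, with 11.1% higher and 11.1% lower, against 2.51% and 0.959% of 7088. The matrix genes did not lean one way, with 43 above 0, 37 below and a median of 0.02, against 0.01 over all genes. Their differences were wider, with an SD of 0.86 against 0.54 and a median size of 0.45 against 0.20. The genes higher in the dexamethasone array included Adamts3, Mmp17, Col1a2, Col3a1 and Mmp28. The genes lower were Col7a1, Col2a1, Col27a1, Fbn2, Col15a1, Col4a3, Adamts15, Col11a2, Col4a4 and Col11a1. All 16 kept their sign under the 11 processing alternatives that give a difference, and 9 passed 2-fold in each that measured them: Mmp17, Col1a2, Col3a1, Col7a1, Col2a1, Col27a1, Fbn2, Col15a1 and Col11a2.

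**Figure D1:**
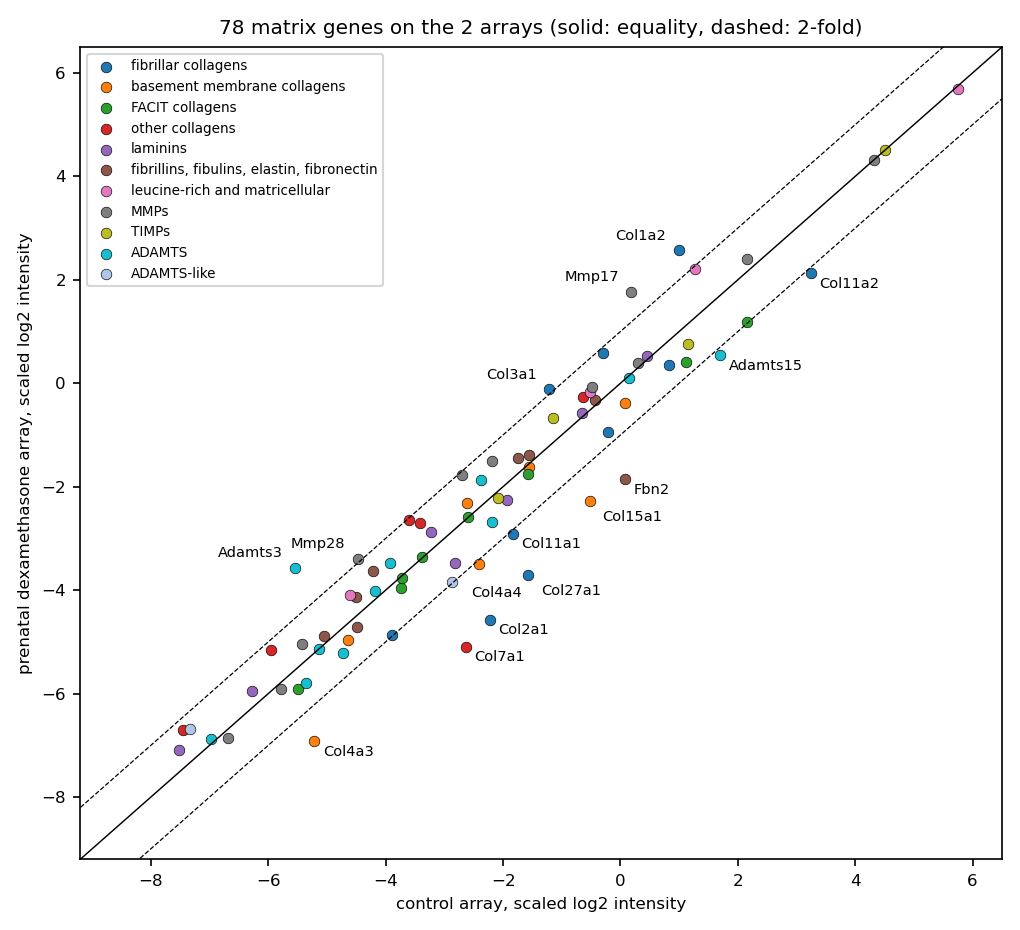
Scaled log2 intensity of 78 matrix genes measured on both arrays, control array on the x axis and dexamethasone array on the y axis, 1 point per gene, coloured by class. The solid line is equality and the dashed lines are 2-fold; 15 named genes lie outside the dashed lines, 5 above and 10 below, and none of the other genes drawn does.

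Fibrillar collagens split into a higher group of types I and III and a lower group of types II, V, XI and XXVII. Of 10 measured genes 2 passed 2-fold upward and 4 downward, and the signs were 3 above 0 and 7 below (median -0.86; 0.20 among genes of above-median signal). Col1a2, the alpha-2 chain of collagen I, the main collagen of connective tissue, had a signal of 2796 in control and 8765 in dexamethasone RNA. This was a 2.97-fold difference (1.57; probe at rn4 chr4:29428206-29428265). Col1a1, the partner chain of the same triple helix, had signals of 1140 and 2209 on its brightest probe, a difference of 0.88, and its other probe was at 0.99. Col3a1, the chain of collagen III, which forms fibres together with collagen I in vessel walls and meninges, had signals of 604 and 1368, a 2.15-fold difference (log2 difference 1.10). All probes of these 3 genes were higher in the dexamethasone array.

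The other fibrillar collagens were lower. Col2a1, the collagen of cartilage and vitreous, had signals of 299 in control and 62.3 in dexamethasone RNA, a 5.06-fold difference (-2.34). Col27a1, a fibrillar collagen of cartilage, had signals of 473 and 114, a 4.37-fold difference (-2.13; rn4 chr5:80316275-80316334). Collagen XI nucleates fibrils and sets their width. Its chain Col11a2 had signals of 13312 and 6489 (-1.11), with the other probe at -1.22. Col11a1 had signals of 396 and 197 (-1.09; -0.95 with normexp), and its 3 probes ran from -1.52 to -0.61. The chains of collagen V, which also starts fibrils of collagen I, fell short of 2-fold: Col5a1 was at -0.97 (94.0 and 50.4), Col5a2 at -0.74 (1217 and 769; -0.72 on its other probe) and Col5a3 at -0.48 (2505 and 1888). The lower group thus held all 7 measured fibrillar chains other than those of types I and III.

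The probes of some fibrillar collagens share stretches of sequence. Those below lie in the coding sequence of the C-terminal propeptide, the domain by which 3 chains find each other before the triple helix forms, and the first ends at the stop codon. Each is 60 bases, read 5′ to 3′ on the transcript strand, with rn4 positions from the array files; capitals mark bases identical to the compared probe in an ungapped alignment. The Col1a1 and Col5a1 probes are shown against each other and match at 31 of 49 aligned bases. Col3a1 is shown against Col1a1 (21 of 26) and Col2a1 against Col3a1 (20 of 34). The closest of these matches was between Col3a1 and Col1a1, which had the same sign.
Col1a1 (chr10:83637956-83638015, plus strand; 446 control, 936 dexamethasone; 0.99): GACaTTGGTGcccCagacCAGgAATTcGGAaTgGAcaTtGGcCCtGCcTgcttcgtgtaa
Col3a1 (chr9:44317465-44317524, plus strand; 604 control, 1368 dexamethasone; 1.10): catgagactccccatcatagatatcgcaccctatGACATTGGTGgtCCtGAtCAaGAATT
Col5a1 (chr3:6970963-6971022, plus strand; 94.0 control, 50.4 dexamethasone; -0.97): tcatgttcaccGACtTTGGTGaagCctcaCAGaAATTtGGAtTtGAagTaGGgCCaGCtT
Col2a1 (chr7:136679416-136679475, minus strand; 299 control, 62.3 dexamethasone; -2.34): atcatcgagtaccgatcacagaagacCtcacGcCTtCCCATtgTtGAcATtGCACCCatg
How far any of these probes pairs with the transcript of a related collagen was not analysed here.

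Collagen I and III are made in brain mainly by fibroblasts of the meninges and larger vessels. Of 13 marker genes of these cells, none of them a collagen, 12 were above 0 and 3 were past 2-fold upward, with a median of 0.60 and a range of -0.09 to 2.01. Their summed scaled signal was 28.7 in control and 40.5 in dexamethasone RNA, and all 13 were measured on both. This sum is weighted to the brightest genes, Igf2 (signals of 13556 and 20254, difference 0.50), Igfbp2 (14163 and 19330, 0.37) and Slc13a3 (7376 and 10447, 0.43). One of the 13, Ogn, is also in a matrix list described further on. The 3 past 2-fold were Aldh1a2, a retinoic acid enzyme of the meninges (signals of 53.2 and 225; 2.01), Slc22a6, an organic anion transporter (351 and 1197; 1.70), and Crabp2, a retinoic acid binding protein (971 and 2133; 1.06). The part of these cells in the collagen result was not tested. In bulk tissue more cells of a type and more RNA per cell cannot be told apart.

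Basement membrane collagens lay mostly below 0. Of 7 measured genes 3 passed 2-fold, all 3 downward, and 6 were below 0 (median -0.46). Col15a1, a collagen of the outer face of vascular basement membranes, had signals of 981 in control and 307 in dexamethasone RNA, a 3.37-fold difference (-1.75; rn4 chr5:63930574-63930633). Col4a3 and Col4a4 encode chains that join with that of Col4a5 in the collagen IV network of the kidney glomerulus. Col4a3 was dim, with signals of 37.8 and 12.2 (-1.71), and Col4a4 had signals of 265 and 131 (-1.09). Neither passed 2-fold with normexp correction, where Col4a3 was at -0.36 and Col4a4 at -0.82. Col4a5 was at 0.31 (228 and 297).

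The ubiquitous chains of collagen IV differed less. Col4a1 had signals of 1481 and 1131 (-0.46), and its other probe was at -0.38. Col4a2 had signals of 56.0 and 47.4 (-0.32). Col18a1, the source of endostatin, was close to equality (474 and 481; -0.06). The second Col4a1 probe lies in the triple helix domain, where glycine returns at a fixed interval of residues. It is shown because it makes that repeat visible; capitals mark its 6 glycine codons, each starting a triplet of residues.
Col4a1 (rn4 chr16:83146135-83146194, plus strand; 44.2 control, 35.7 dexamethasone; -0.38): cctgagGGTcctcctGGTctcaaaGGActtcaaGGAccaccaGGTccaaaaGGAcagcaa

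Col4a1 and Col4a2 are transcribed in opposite directions from 1 shared promoter, as are Col4a3 and Col4a4, and in both pairs the 2 genes had the same sign. In the RefSeq promoter table (GRCr8) the starts of Col4a2 and Col4a1 have 76 bases between them, which are shown because the whole space belongs to both genes. Of these bases 78.9% are G or C. Capitals mark the 1 match to the GC box core GGGCGG, which lies on the opposite strand and so reads CCGCCC.
Col4a2-Col4a1 interval (GRCr8 chr16:84885521-84885596): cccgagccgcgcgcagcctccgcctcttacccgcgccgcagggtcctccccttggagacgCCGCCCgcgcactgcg
The motif CCAAT was not found in it on either strand. In windows of 300 bases around gene starts, GGGCGG on either strand was found in 33.1% of all 33469 promoters and in 51.7% of 89 promoters of the matrix genes, and CCAAT in 37.5% and 27%. Promoters were listed for 81 of the 104 gene names. A match is a string of letters and was not tested for function. The starts of Col4a4 and Col4a3 have 412 bases between them.

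Markers of the cells that lie on vascular basement membranes differed little. Of 13 measured endothelial markers 11 were below 0 and 0 reached 2-fold (median -0.11, range -0.66 to 0.28), with a summed scaled signal of 22.7 in control and 20.1 in dexamethasone RNA. Egfl7, an endothelial secreted protein, was at -0.66, Emcn, an endothelial sialomucin, at -0.53 and Pecam1, an endothelial adhesion molecule, at -0.37. Of 11 measured markers of pericytes and smooth muscle 9 were below 0 and 0 reached 2-fold (median -0.14, range -0.46 to 0.25), with summed scaled signals of 5.98 and 5.39. The largest of these were Kcnj8 (-0.46) and Abcc9 (-0.28), the subunits of a potassium channel, and Rgs5 (-0.27), a regulator of G proteins. Their part in the result was not tested.

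FACIT collagens, which decorate the surface of fibrils, held no gene past 2-fold among 8 measured (median -0.20, 6 below 0). Among genes of above-median signal, here only Col16a1 and Col9a2, the median was -0.85. Col16a1 had signals of 6293 in control and 3355 in dexamethasone RNA, just inside the limit (-0.98). Col9a2, a chain of collagen IX of cartilage, had signals of 3040 and 1958 (-0.71), and Col22a1 had signals of 31.0 and 24.7 (-0.40). Col9a1, another chain of collagen IX, was at -0.04 (106 and 110). Col12a1 and Col14a1 each had a bright probe near 0 (-0.18 and 0.02) and a dimmer one farther out (-0.96 and 0.90), so their values depended on the probe.

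The other collagens had opposite extremes. Of 6 measured genes 5 were above 0 (median 0.73; 0.32 with normexp), 0 were at least 2-fold higher and 1 was lower. Col7a1, the collagen of the fibrils that anchor epithelium, had signals of 226 in control and 43.2 in dexamethasone RNA, a 5.50-fold difference and the largest of all 80 genes (-2.46; rn4 chr8:114002585-114002644). With normexp it was at -1.61. Col8a1, a short-chain collagen of vessel walls, had signals of 116 and 235 (0.95; 0.72 with normexp). Collagen VI forms beaded filaments around cells: Col6a1 was at 0.71 (131 and 226) and Col6a2 at 0.38 (900 and 1235), while Col6a3 was not well above background on either array. Col23a1, a membrane-spanning collagen, was at 0.81 on one probe and -0.35 on the other, so its sign was not settled. Col10a1, the collagen of hypertrophic cartilage, was dim (8.01 and 14.3) and was at 0.76, or at 0.01 with normexp.

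**Figure D2:**
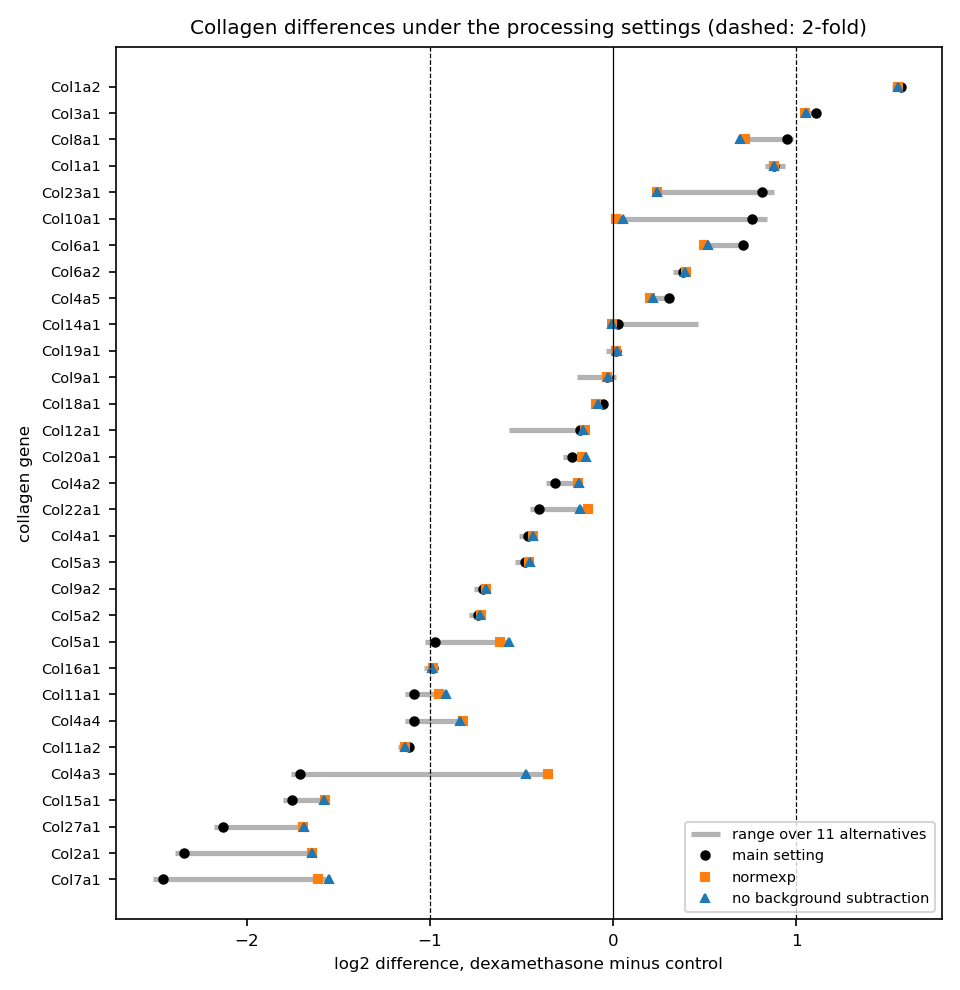
Log2 difference, dexamethasone minus control, of the 31 measured collagen genes (y axis), with the main setting as black circles, normexp background correction as orange squares, no background subtraction as blue triangles and the range over the 11 alternatives as grey bars. Col1a2 and Col3a1 stay right of the upper dashed 2-fold line and Col7a1, Col2a1, Col27a1, Col15a1 and Col11a2 stay left of the lower one, while Col4a3 runs from -1.76 to -0.36.

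Among laminins, the cross-shaped trimers to which cells attach, Lamc1, Lamb2, Lama2 and Lama5 lay between -0.33 and 0.35. Of 12 listed laminin genes 8 were on the array. Lamc1, the gamma chain of most laminins, was spotted 10 times, and its signal averaged 1930 ± 31.5 in control and 2126 ± 62.5 in dexamethasone RNA (SD, 10 spots), a difference of 0.06 with a spot SD of 0.033. Lamb2 was at 0.07 (892 and 989), Lama2, a chain of muscle and of the glial side of vessels, at 0.35 (150 and 201), and Lama5 at -0.33 (366 and 308). Over 8 measured laminins the median was 0.20, and -0.02 with normexp, and 0 were 2-fold or more lower. Lamb3, a beta chain of epithelial basement membranes, was at -0.66 (199 and 132). Lamc3 was dim (7.68 and 10.9) and was at 0.42, or at -0.11 with normexp, so its sign was not settled.

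The microfibril proteins Fbn1 and Fbn2 differed in opposite directions. Fbn2, the fibrillin of developing tissue, had signals of 1479 in control and 410 in dexamethasone RNA, a 3.80-fold difference (-1.92; rn4 chr18:53883011-53883070), and was at -1.76 to -1.98 over the alternatives. Fbn1, the main fibrillin of the adult, had signals of 75.9 and 120 (0.59). Fbln1, a fibulin that binds fibronectin and basement membranes, was at 0.36 (62.2 and 83.8). The rest of this class lay nearer to 0. Eln, elastin itself, was at 0.16 on its brightest probe and -0.14 on the other, and Fn1, the adhesive glycoprotein fibronectin, was at 0.10 (1043 and 1180). Of 8 measured genes 0 were 2-fold or more higher and 1 lower (median 0.16). Among genes of above-median signal, here only Fbn2 and Fn1, the median was -0.91.

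Small leucine-rich proteoglycans, which bind to collagen fibrils, were above 0 on their brightest probes. Bgn, biglycan, had signals of 3392 in control and 6883 in dexamethasone RNA on that probe (0.95), but was at -0.05 on its other probe. Lum, lumican, had signals of 57.6 and 86.7 (0.51). Dcn, decorin, a marker of fibroblasts, was spotted 10 times, with mean signals of 986 ± 38.3 and 1315 ± 40.9, a difference of 0.34 (spot SD 0.044) that was above 0 in all 10 spot pairs. Lum and Dcn are neighbours on chromosome 7, with probes 45277 bases apart. Sparc, a collagen-binding matricellular protein made in brain by astrocytes and endothelium as well, was at -0.08 (75831 and 75838). Of 4 measured genes 0 passed 2-fold (median 0.43), and Postn, periostin, was not well above background on either array.

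**Figure D3:**
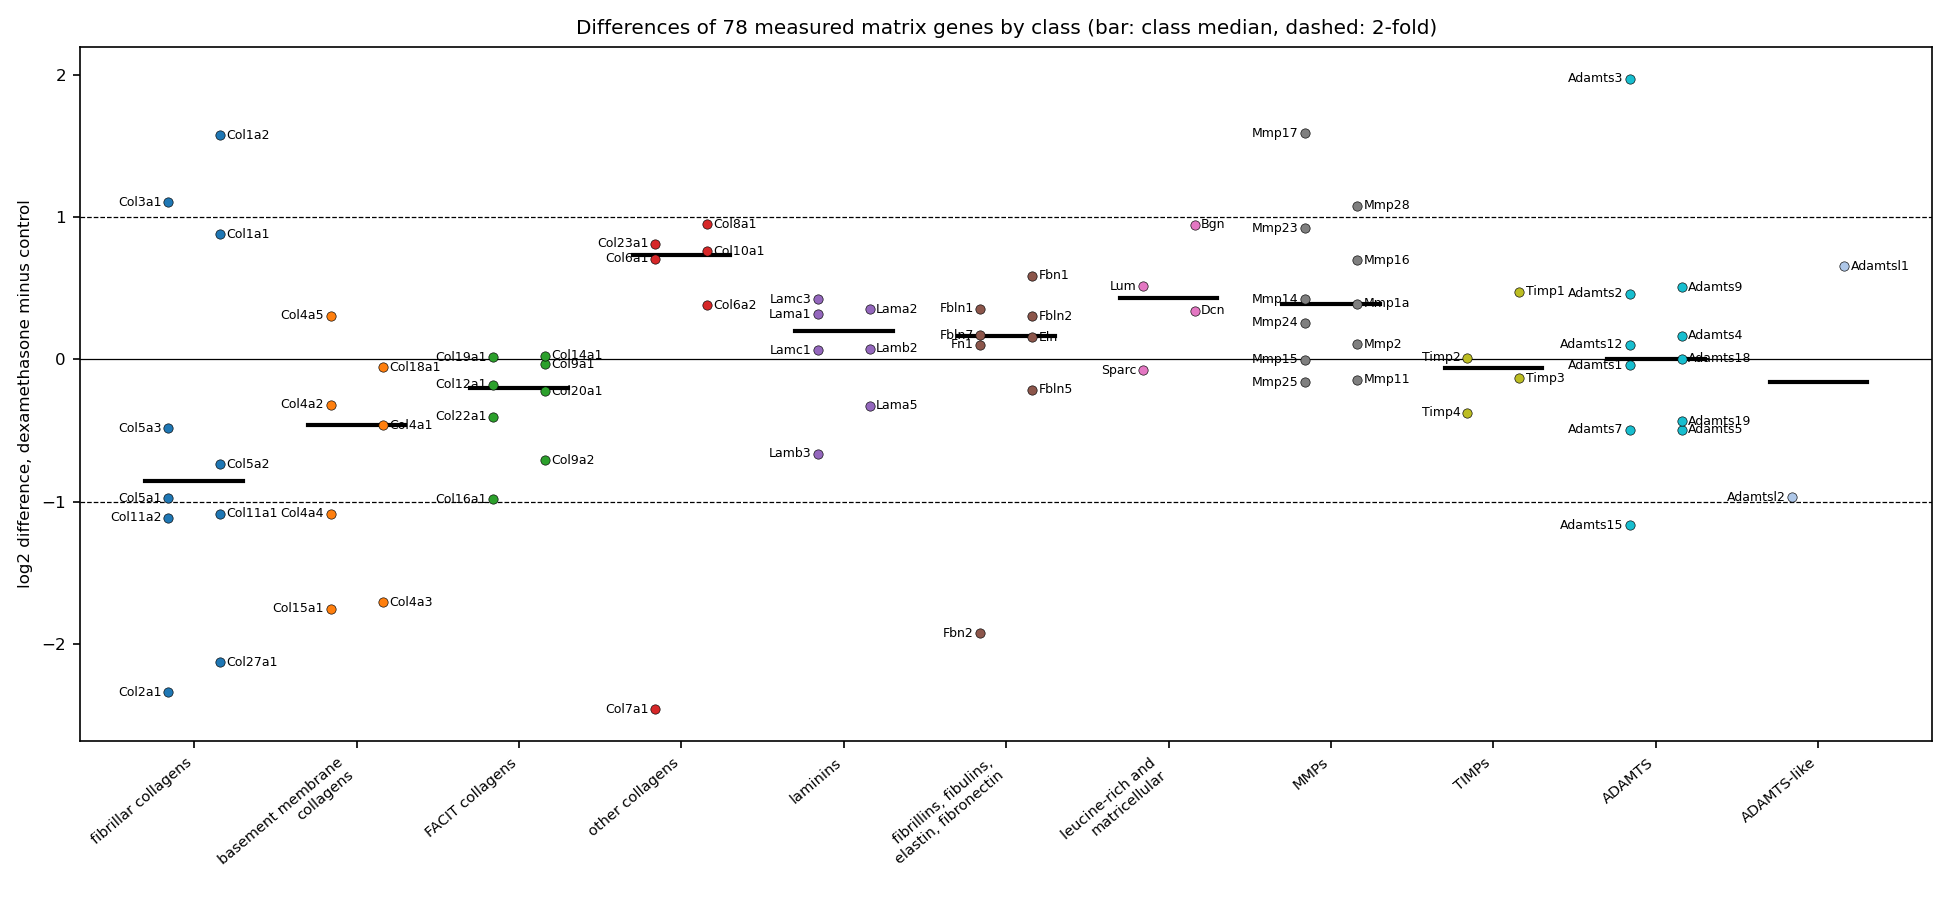
Log2 difference, dexamethasone minus control (y axis), of 78 measured matrix genes by class (x axis), 1 point per gene, with the median of all measured genes of the class as a bar and 2-fold as dashed lines. Fibrillar collagens stand in 2 groups, with Col1a1, Col1a2 and Col3a1 above 0.87 and the other 7 below -0.48, while TIMPs lie between -0.38 and 0.47.

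MMPs were mostly above 0. Of 11 measured genes 2 were 2-fold or more higher and 0 lower, and 8 were above 0 (median 0.39). With normexp 1 was higher and the median was 0.24, and without the dim filter 4 were higher and the median was 0.14. Mmp17, a membrane-anchored MMP that is expressed by neurons, had signals of 1594 in control and 5048 in dexamethasone RNA, a 3.01-fold difference (1.59; rn4 chr12:28142947-28143006), and its other probe was at 1.95. Mmp28, epilysin, had signals of 63.3 and 141 (1.08; 0.60 with normexp). Mmp23, which regulates a potassium channel, was at 0.92 (216 and 430). Mmp16, a membrane MMP of neural tissue, was spotted 10 times with 8 pairs free of outlier marks, all of them higher, and was at 0.70 with a spot SD of 0.037. Mmp14, the activator of MMP2, was at 0.42 (spot SD 0.033, 9 of 9 pairs higher). The gelatinase Mmp2 itself was at 0.11 (1719 and 1950), and Mmp15, a membrane MMP, was at -0.00 (27878 and 29297).

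The MMPs best known from inflammation were mostly at background. Of 23 MMP genes on the array 12 were not measured on both arrays, while over all genes 14175 of 17570 were measured. Among the 12 were the stromelysin Mmp3, the neutrophil collagenase Mmp8, the gelatinase Mmp9 and the macrophage elastase Mmp12, each well above background on neither array. Mmp9 was spotted 10 times and 0 of its spots were well above background in either array (mean signals of 2.36 and 4.10). Mmp13, a collagenase, was well above background in 10 of 10 spots of the control and 4 of 10 of the dexamethasone array, with mean signals of 10.3 ± 2.29 and 8.40 ± 2.35 that overlap. Mmp19 (signals of 2.63 and 10.05) was well above background on the dexamethasone array and not on the control array, with a bound of at least 1.63-fold. A bound divides the scaled signal of the detecting array by the dimmest signal that passed as well above background on the other array, or by that probe's signal there where it is brighter.

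The 4 TIMPs did not pass 2-fold (median -0.06). Timp1, the inhibitor induced by injury and inflammation, was at 0.47 (spot SD 0.049, higher in 9 of 9 spot pairs; 631 ± 23.2 and 924 ± 33.4). Timp4, an inhibitor of brain and heart, was at -0.38 (3104 and 2519) and -0.40 on its other probe. Timp2, the inhibitor and helper of MMP2 activation, was at 0.01 (31803 and 33786), and Timp3, which is bound to the matrix, was at -0.13 (330 and 317).

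ADAMTS proteases had 1 gene past 2-fold each way among 11 measured (median 0.00). Among genes of above-median signal, here only Adamts1 and Adamts15, the median was -0.60. Adamts3, the procollagen N-propeptidase that trims collagen II, had signals of 30.2 in control and 125 in dexamethasone RNA, a 3.92-fold difference (1.97; rn4 chr14:19963291-19963350), and was at 1.02 with normexp and 0.94 without background subtraction. Its relative Adamts2, which trims collagens I and III, was at 0.46 (91.8 and 133). Adamts15, which cuts hyaluronan-binding proteoglycans such as versican, was spotted 10 times, with mean signals of 4575 ± 101 and 2147 ± 58.3, a difference of -1.17 (spot SD 0.037) with 0 of 10 pairs higher. Its other probe was at -0.48. Adamts1, another of the proteoglycan-cutting enzymes, was at -0.04 (spot SD 0.035), Adamts5 at -0.49 (53.2 and 39.8), Adamts4 at 0.17 (76.9 and 91.0) and Adamts9 at 0.51 (272 and 407). Of the ADAMTS-like proteins, which lack the protease, Adamtsl2, a microfibril-binding protein, was at -0.97 (192 and 104), or at -0.72 with normexp. Adamtsl1 was dim (8.70 and 14.4) and was at 0.65, or at -0.04 with normexp, so its sign was not settled. Adamts17 (18.5 and 6.21) was well above background in the control array alone, with a bound of at least 2.66-fold. Adamtsl3, Adamtsl4, Adamtsl5 and Col24a1 were also well above background there alone, with bounds under 2-fold.

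Some of these genes lie side by side, and neighbours did not always share a sign. Of 10 pairs with probes within 500000 bases on rn4, 6 had the same sign and 4 had opposite signs. Col3a1 and Col5a2 on chromosome 9 were at 1.10 and -0.74. The other opposite pairs were Col18a1 (-0.06) with Col6a1 (0.71) and with Col6a2 (0.38), and Col9a1 with Col19a1 (-0.04 and 0.01). Both genes of Col4a3 and Col4a4, of Col4a1 and Col4a2, of Dcn and Lum and of Col6a1 and Col6a2 had the same sign. Of the 18 matrix genes with several measured probes, 15 had the same sign on all of them and 12 spanned under 0.5, and the 3 with opposite signs were Bgn, Col23a1 and Eln. Col4a3bp, the current Cert1, entered through its name, encodes a ceramide transporter and no matrix protein, and was at -0.19; without it the counts past 2-fold were the same and the median was 0.02.

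Other genes of the matrix were described from 7 lists that leave out the genes above. The enzymes that fold and cross-link collagen mostly lay close to equality: of 24 measured genes 0 were 2-fold or more higher and 1 lower (median 0.07). The lower one was P3h3, a prolyl 3-hydroxylase (signals of 2440 and 1078; -1.25). Lox, lysyl oxidase, which cross-links collagen and elastin, was at -0.99 (56.2 and 29.9), or at -0.38 with normexp. Pcolce, which speeds the release of the collagen I propeptide, was at 0.68 (2453 and 4140). Elastic fibre partners had 2 of 11 genes at least 2-fold higher (median 0.08): Ltbp2, a microfibril protein (8.62 and 19.3; 1.09), and Efemp1, a fibulin (377 and 822; 1.05). With normexp 0 were, with Ltbp2 at 0.15, Efemp1 at 0.92 and the median at -0.0014. Mfap5, another microfibril protein, was at 0.74. Of 8 other basement membrane genes Agrn, agrin, was at least 2-fold lower (30487 and 15150; -1.08), Nid1, nidogen, was at -0.23 and Fras1 at 0.38.

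Matricellular and proteoglycan genes held the largest differences of these lists. Smoc2, a SPARC-related calcium-binding protein, had signals of 122 in control and 1472 in dexamethasone RNA, an 11.4-fold difference (3.51). Spp1, osteopontin, was at 2.14 (137 and 636), Ccn3, a matricellular growth regulator, at 2.02 (306 and 1307) and Fmod, fibromodulin, a binder of collagen fibrils, at 1.63 (1117 and 3646). These were the 4 genes past 2-fold among 22 measured, of which 11 were above 0 and 11 below (median 0.02, or -0.03 with normexp). Hapln1, the link protein of perineuronal nets, was at 2.31 (90.0 and 471), and the other 11 measured genes of the net and of hyaluronan matrix stayed within 2-fold (list median 0.17). Among these Acan, aggrecan, was at 0.60 (25.6 and 40.9), or at 0.18 with normexp. Hapln2, a link protein of nodes of Ranvier, was at -0.50.

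Among 22 receptors of matrix, 3 were 2-fold or more higher and 0 lower (median 0.13). They were Cd44, the hyaluronan receptor (144 and 375; 1.31), Itga11, a collagen-binding integrin of fibroblasts (41.3 and 107.2; 1.30), and Itgb4, a laminin-binding integrin (567 and 1392; 1.22). With normexp Itga11 was at 0.61, which left 2 genes past 2-fold, and the median was 0.07. Other proteases and inhibitors had 1 of 17 genes past 2-fold each way (median 0.06). Ctsk, cathepsin K, a collagen-degrading enzyme, was at 1.01 (230 and 488), and Adam8, a membrane protease, at -1.52 (76.9 and 28.3). With normexp 0 passed 2-fold either way, with Ctsk at 0.83, Adam8 at -0.77 and the median at -0.04.

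**Figure D4:**
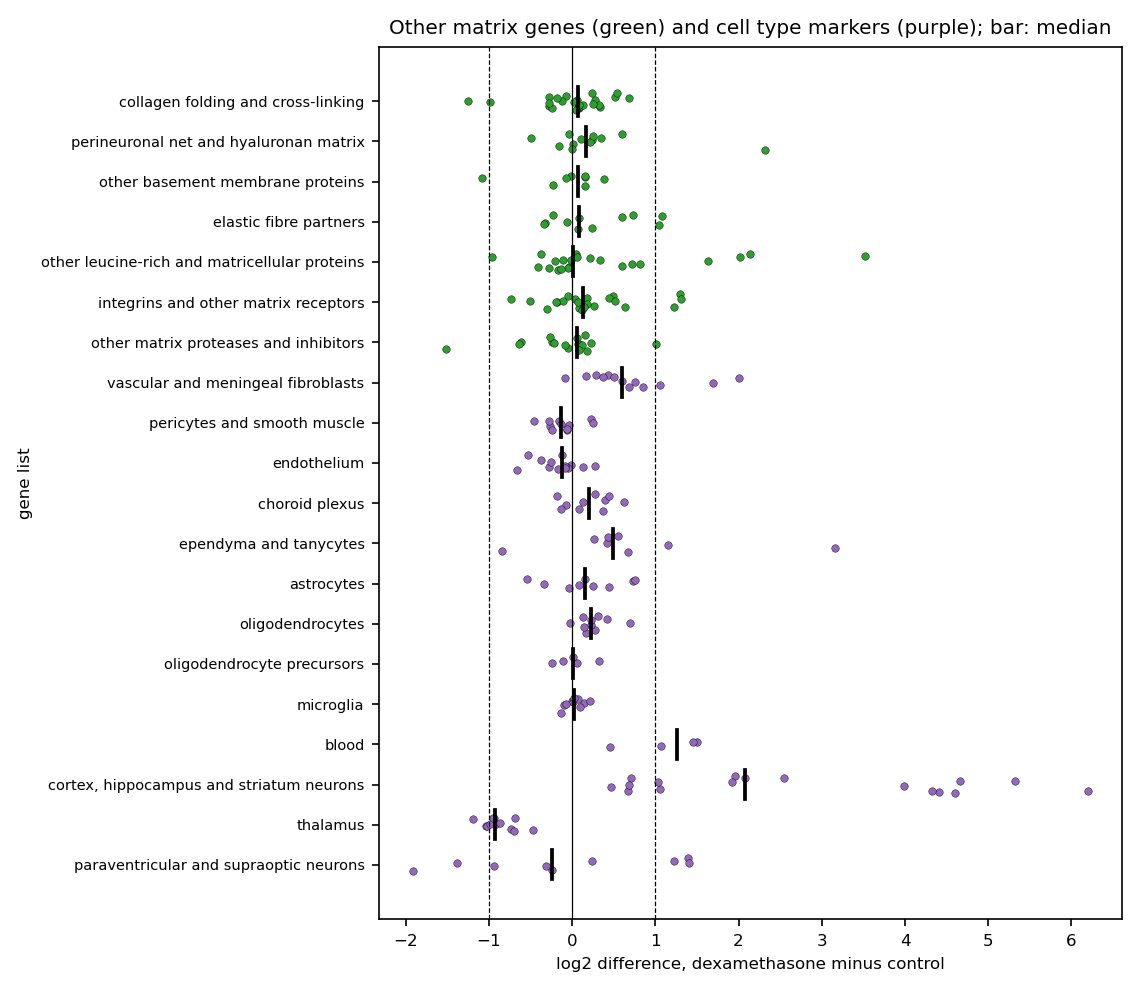
Log2 difference, dexamethasone minus control (x axis), of measured genes in 7 further matrix lists (green) and 13 cell type and region marker lists (purple), 1 point per gene, with list medians as bars and 2-fold as dashed lines. The matrix lists have medians from 0.02 to 0.17, the fibroblast markers lie at 0.60, and the forebrain and thalamic markers lie at 2.08 and -0.93.

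Markers of other cells and regions differed between the arrays as well. Of 9 measured markers of paraventricular and supraoptic neurons 4 were above 0 and 5 below, with 3 past 2-fold upward, 2 downward and a median of -0.24 (summed scaled signal of 10.96 and 19.2). Avp, vasopressin, was at -1.91 (signals of 3464 and 970) and Oxt, oxytocin, at -1.38 (1455 and 587), while Crh, corticotropin-releasing hormone, was at 1.39, Sst, somatostatin, at 1.41 and Trh, thyrotropin-releasing hormone, at -0.24. Nr4a1, also past 2-fold upward, was at 1.23 (1612 and 3986), and Sim1 was at -0.31 (14.1 and 12.0). Otp was not measured on both arrays. How specific the genes of this list are to these neurons was not tested. The summed signal is weighted to Sst, the brightest of the 9 on both arrays (signals of 7602 and 21300). Of 17 measured neuronal markers of cortex, hippocampus and striatum 17 were above 0 (median 2.08, or 1.03 with normexp; summed scaled signal of 6.15 in control and 38.0 in dexamethasone RNA), among them Fezf2 and Neurod2. Of 12 thalamic markers 12 were below 0 (median -0.93; 116 and 61.9), led by Gbx2, Prkcd and Slitrk6. These lists, like the others, were chosen with earlier results of these data known. Blood genes were higher (4 of 4 above 0; median 1.26, or 0.65 with normexp; 18.1 and 51.2) and led by Hbb, a globin (25249 and 75249). Markers of ependyma and tanycytes were at a median of 0.49, with 7 of 8 above 0 (summed scaled signal 6.97 and 28.0) and Crym at 3.16 (signals of 3450 and 32442). The gene below 0 was Rax, at -0.84 (47.0 and 27.6), or at -0.36 with normexp. Medians of the other lists were 0.21 for choroid plexus (286 and 276), 0.16 for astrocytes (210 and 193), 0.22 for oligodendrocytes (317 and 336), 0.02 for their precursors and 0.02 for microglia (35.8 and 37.4). Summed signals are weighted to the brightest gene: Ttr for choroid plexus (-0.07), Agt for astrocytes (-0.54) and Crym for ependyma and tanycytes. Of the measured markers 7 of 10 for choroid plexus and 6 of 9 for astrocytes were above 0. These regions and cells make matrix of their own, and their part in the differences of the matrix genes was not tested.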

How the data were processed

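The authors deposited scanner output with a linear, background-subtracted intensity for every spot. Per the file headers it was made with Feature Extraction 10.7.1.1 (9.5.1.1 in the submitters' processing notes), and probe positions are those of rn4. The authors' value table holds processed intensity with a median of 149.9 in both columns. Its differences correlated with those of the scanner values at 0.996 across probes; its centring is unstated.

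Of 42877 non-control spots per array, 267 (control) and 249 (dexamethasone) with an outlier mark were left out, and 79.5% and 78.2% of probes were well above background. Log2 intensity was averaged over spots and the 75th percentile over non-control probes subtracted. A probe counted as measured when more than 0.5 of its spots were well above background on each array. Gene names were updated through RefSeq genes (GRCr8, names alone): 17998 probes by accession, 2662 by symbol and 559 by older symbol; 9148 kept the file's name and, unless members, stayed out of the counts over all genes. R 4.3.3 with limma 3.58.1 and Python 3.11.15 were used, and the counting was tested on simulated data.

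The text names matrix genes past 2-fold, the 3 largest differences in each class and list, genes spotted 10 times and bounds past 2-fold. Some values under this rule are not reported here. Other genes were named after their values were seen. The members and lists were chosen with earlier results of these data known. Alternatives covered background correction, scaling, the dim filter, probe choice, outlier marks, the deposited table and a 1.5-fold limit.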

Additional observations from a re-analysis of the deposited data

How the results depend on the processing

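No paired analysis was possible because each group has 1 array, and no array could be left out. The count of matrix genes at least 2-fold higher, 6 in the main setting, was 3 without background subtraction, 3 for genes of above-median signal and 16 at 1.5-fold. The count lower, 10 in the main setting, was 3 for genes of above-median signal and 16 at 1.5-fold. The median over matrix genes, 0.02, was -0.027 with normexp, -0.033 with the 75th percentile over probes measured on both arrays and 0.063 for genes of above-median signal. Over all genes, 478 higher and 338 lower became 284 and 130 with normexp, 280 and 133 without background subtraction, 870 and 732 without the dim filter, 178 and 68 for genes of above-median signal, and 1034 and 1067 at 1.5-fold. The share higher among called genes, 58.6%, was 68.6% with normexp, 67.8% without background subtraction, 72.4% for genes of above-median signal, 53.9% with the 75th percentile over probes measured on both arrays and 54.3% without the dim filter. Of the 80 measured matrix genes 70 kept their sign under all alternatives. The 7 of 16 genes that did not stay past 2-fold included Adamts3, Adamts15, Col11a1, Col4a3, Col4a4 and Mmp28. Adamts15 fell inside 2-fold only with the mean over the probes of a gene (-0.82), and Adamts3 only without background subtraction (0.94). Col11a1, Col4a3, Col4a4 and Mmp28 did so with normexp and without background subtraction. The cause was not tested. The median of fibrillar collagens was -0.91 to -0.65 in all alternatives but genes of above-median signal, where it was 0.20. There the medians of fibrillins, fibulins, elastin and fibronectin (-0.91, otherwise 0.11 to 0.23), of FACIT collagens (-0.85, otherwise -0.31 to -0.15), of ADAMTS proteases (-0.60, otherwise -0.05 to 0.07) and of TIMPs (0.01) also had another sign or size, and the laminin median was -0.02 with normexp. Of above-median signal the fibrillin class had only Fbn2 and Fn1, FACIT collagens only Col16a1 and Col9a2, and ADAMTS proteases only Adamts1 and Adamts15. The spread between animals was not measured, and dim probes have the larger error between spots.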
